A study of Mus musculus with 6 samples.

Results

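Laminins and integrins are both sides of the contact between a cell and its basement membrane. A laminin is a secreted trimer of an alpha, a beta and a gamma chain that polymerises into the sheet under an epithelium. An integrin is a pair of an alpha and a beta subunit in the cell membrane that binds laminin, collagen, fibronectin or a partner on another cell and couples it to actin or keratin filaments. In the kidney the ureteric epithelium and the mesenchyme around it carry different chains and subunits, and branching of the ureteric bud needs several of them. The genes described here are those whose symbol begins with Itga or Itgb and a subunit name, or with Lama, Lamb or Lamc and a number, without genes that only carry a related name. They came to 35 of the 20886 genes named on the array, 24 integrin subunits and 11 laminin chains, and were read by 46 probes.

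The arrays compared cells sorted from salt-stressed newborn kidneys of C57BL/6 mice at postnatal day 1. MUT pools 1 to 3 were of the genotype Hoxb7cre+; R26RtdTomato; Bdkrb2f/f, in which the bradykinin B2 receptor gene is deleted where the Hoxb7 driver of the ureteric lineage is active. WT pools 1 to 3 were of the genotype Hoxb7cre+; R26RtdTomato; Bdkrb2+/+, so both groups carried the Cre transgene and the tdTomato reporter. Cells were sorted as GFP+ and TdTomato+, and the labels call them collecting duct cells or derivatives of the ureteric bud. The labels give 3 MUT and 3 WT biological replicates as pools. How many mice went into each is not stated in the sources used here. Every array paired a Cy5-labelled pool with Cy3-labelled RNA of WT pool 1, so a log2 ratio of 0 is the level of WT pool 1 and the array of WT pool 1 set that RNA against itself. On that array the log2 ratios of the tested integrins and laminins lay between -0.21 and 0.28. The single probe of Bdkrb2 gave no signal well above background on the 6 arrays, neither in Cy5 nor in Cy3, so the deletion was not checked here.

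In MUT pools the laminin chains and integrin subunits changed in both directions. Lama2, Lama4, Lamc3, Itga9 and Itga11 were higher, and genes such as Lama5, Lamb1, Lamb3, Itga6, Itgb4, Itgb6 and Itgav were lower. A gene was called at a limma adjusted p under 0.05, with adjustment over all tested probes, and was represented by its brightest tested probe. Of the 30 genes with a tested probe 13 (43.3%) were called, where 32.8% of all tested genes were. The 5 that were higher are 16.7% of the tested integrins and laminins, against a background of 14.0%, and the 8 that were lower are 26.7%, against 18.8%. In 21 of the 30 (70.0%) no MUT pool overlapped a WT pool, against 52.5% of all tested genes. These shares are a description and were not tested. The median size of the log2 difference between MUT and WT was 0.58 over the 30 genes and 0.28 over all tested genes, while the signed median was -0.07 over the 30 genes and -0.02 over all. Of the called genes 9 differed at least 2-fold.

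**Figure D1:**
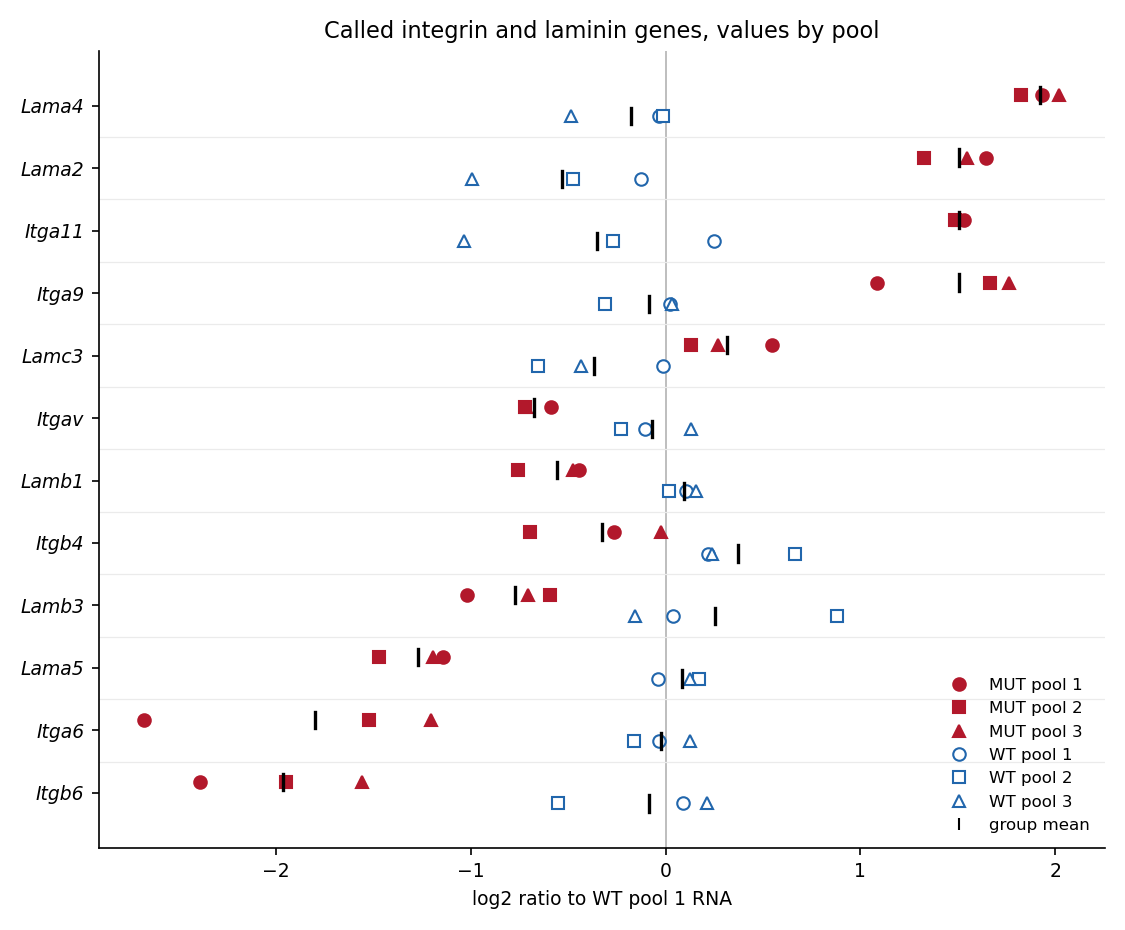
Log2 ratios to the RNA of WT pool 1 (x axis) of 12 called integrin and laminin genes, with filled red symbols for the 3 MUT pools, open blue symbols for the 3 WT pools and a black bar for each group mean. None of these genes has overlapping groups, and the gap between groups is widest for Lama4, 1.84, and narrowest for Lamc3, 0.15.

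Markers of several cell types moved along with these genes. Their counts stand beside 14.0% higher and 18.8% lower over all tested genes. The median log2 ratio of 10 renal stroma markers was 1.57, 1.35 and 1.30 in MUT pools 1 to 3, against 0.12, -0.94 and -1.43 in WT pools 1 to 3, and 8 of the 10 were higher in MUT. Of 8 nephron progenitor markers 7 were higher. All 7 tested markers of principal cells, the water-reabsorbing cells of the collecting duct, were lower, with medians of -2.18, -2.01 and -1.84 in MUT pools and -0.12, -0.19 and -0.08 in WT pools. They were well above background in both groups, as was the ureteric list, of which 8 of 10 were lower. All 8 intercalated cell markers were lower (median log2 difference -2.42), as were all 8 of the loop of Henle and distal tubule (-2.65) and 4 of 5 tested erythroid and platelet markers (-2.47), of which 1 was higher. Of 6 podocyte markers 2 were higher (0.18). Of 10 endothelial markers 9 were lower and none was higher, also at an unadjusted p under 0.05. In such bulk samples fewer cells of a type and less RNA per cell cannot be told apart, and the part that the mix of cells has in the results for integrins and laminins was not tested.

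Of the 5 laminin alpha chains, which carry the domain that integrins bind, 2 were higher and 1 was lower. Lama4, an alpha chain of blood vessels and mesenchyme, had log2 ratios of 1.93, 1.82 and 2.02 in MUT pools 1 to 3 and of -0.04, -0.01 and -0.48 in WT pools 1 to 3. The lowest MUT pool lay far above the highest WT pool, and the gene was 4.29-fold higher in MUT (log2 difference 2.10 ± 0.15 SE, n = 3 pools per group, limma adjusted p = 0.000365). Lama2, the alpha chain of muscle and mesenchymal basement membranes, had 1.64, 1.33 and 1.55 in MUT pools, against -0.13, -0.47 and -0.99 in WT pools. It was 4.10-fold higher (log2 difference 2.04 ± 0.21 SE, adjusted p = 0.000649), and its other probe gave a log2 difference of 1.86. The 3 WT pools of Lama2 were more spread than the MUT pools, with WT pool 3 lowest, as it was for the stroma markers.

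Lama5, the main alpha chain of mature epithelial basement membranes, including that of the ureteric tree, ran the other way. Its log2 ratios were -1.14, -1.47 and -1.20 in MUT pools and -0.04, 0.17 and 0.13 in WT pools. No MUT pool came near a WT pool, and Lama5 was 2.56-fold lower in MUT (log2 difference -1.36 ± 0.12 SE, adjusted p = 0.000473). Lama1, the alpha chain of early embryonic and tubular basement membranes, was at -0.70, -0.60 and -0.05 in MUT pools and 0.22, 0.04 and 0.04 in WT pools. The groups did not overlap, although the nearest MUT pool was 0.09 below the WT pools. The log2 difference of -0.55 ± 0.17 SE missed the threshold (adjusted p = 0.0527). Of 19 alternatives 7 called Lama1 lower, with the smallest adjusted p without MUT pool 3 (0.00770), and 12 did not call it. Its direction depended on the scale of the arrays. Lama1 was at -0.15 with median centring and at 0.398 with the spike-in controls (adjusted p = 0.323), and neither was called. Lama3, the alpha chain of epithelial anchoring laminin, had probes on either side of the threshold. Its brighter one gave a log2 difference of -0.28 ± 0.11 SE (adjusted p = 0.0994), and the other gave -0.47 ± 0.14 SE (adjusted p = 0.0409). That dimmer probe was well above background on only 1 of the 3 MUT arrays and so was tested only through WT, where its values were higher. Neither probe had overlapping pools. The brighter probe was called at -0.73 with Agilent's processed signals (adjusted p = 0.0250), at -0.72 with the authors' log ratio (0.0266) and at -0.39 with Cy5 alone (0.0435), as was the mean of both probes at -0.38 (0.0270). In the other alternatives the brighter probe was not called. It was at -0.15 with median centring (adjusted p = 0.598) and at 0.67 with the spike-in controls (0.0988).

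The stretches before the start of Lama2 and Lama5 are shown because these chains gave the smallest adjusted p in each direction among the laminins that have a promoter window in the RefSeq table of the GRCm38.p6 assembly. Each runs 5′ to 3′ over the 250 bases before the transcript start, on the minus strand, with motif matches in capitals. The Lama2 stretch lies at chr10:27616943-27617192 and the Lama5 stretch at chr2:180225860-180226109.
Lama2: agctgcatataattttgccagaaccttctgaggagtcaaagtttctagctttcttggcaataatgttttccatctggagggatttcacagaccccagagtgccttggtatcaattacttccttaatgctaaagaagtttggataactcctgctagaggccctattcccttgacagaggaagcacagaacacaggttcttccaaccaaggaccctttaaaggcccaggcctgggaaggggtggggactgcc
Lama5: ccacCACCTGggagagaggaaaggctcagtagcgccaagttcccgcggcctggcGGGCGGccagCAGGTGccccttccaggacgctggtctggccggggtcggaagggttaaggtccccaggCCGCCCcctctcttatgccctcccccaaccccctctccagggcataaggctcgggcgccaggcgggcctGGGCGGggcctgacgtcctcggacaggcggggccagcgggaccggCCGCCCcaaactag
The search covered both strands for the AP-1 motif TGANTCA, the GC box with letters GGGCGG, the core promoter box with letters TATAAA, and the E-box that Snail and Zeb repressors bind, which reads CACCTG. No matches overlapped. The Lama5 stretch held 4 GC boxes, 196, 128, 59 and 14 bases before the start, and 2 such E-boxes at 246 and 186 bases. The Lama2 stretch held none of the 4 motifs. Of 32817 windows of this length in the table, 32.7% held a GC box, 17.2% the E-box, 12.4% the core promoter box and 6.75% the AP-1 motif. The base composition differed as well, with 47.2% G and C before Lama2 and 72.4% before Lama5, where the median window had 52.4%. A match is a run of letters and says nothing of binding.

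Among the beta chains, Lamb1 and Lamb3 were lower and Lamb2 was not called. Lamb1, the beta chain of most early laminins, had log2 ratios of -0.45, -0.76 and -0.48 in MUT pools and 0.10, 0.02 and 0.15 in WT pools. It was 1.57-fold lower with no overlap (log2 difference -0.65 ± 0.12 SE, adjusted p = 0.00572), but the difference was 0.30 with each array scaled to its spike-in controls. Its call was also lost with median centring (-0.19, adjusted p = 0.538) and with the Cy5 channel alone (-0.35, adjusted p = 0.124). Lamb3, a beta chain of epithelial anchoring laminin, had -1.02, -0.60 and -0.71 in MUT pools and 0.04, 0.88 and -0.16 in WT pools. WT pool 2 stood above the other WT pools, and Lamb3 was 2.04-fold lower in MUT (log2 difference -1.03 ± 0.26 SE, adjusted p = 0.0236; adjusted p = 0.0511 without MUT pool 3). Lamb2, the beta chain of the glomerular basement membrane, had a log2 difference of -0.09 ± 0.13 SE with overlapping pools (adjusted p = 0.637), and 0.85 with the spike-in controls.

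Of the gamma chains Lamc3 was higher and Lamc1 was not called. Lamc3, a gamma chain of the nervous system and of some vessels, had 0.55, 0.13 and 0.27 in MUT pools and -0.01, -0.65 and -0.43 in WT pools. It was 1.61-fold higher (log2 difference 0.68 ± 0.18 SE, adjusted p = 0.0288), and its call was lost without MUT pool 3 (adjusted p = 0.0601), without WT pool 2 (0.0884) or without WT pool 3 (0.110). Lamc1, the gamma chain shared by most laminins, had a log2 difference of -0.02 ± 0.15 SE with overlapping pools (adjusted p = 0.928), and 0.93 with the spike-in controls.

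**Figure D2:**
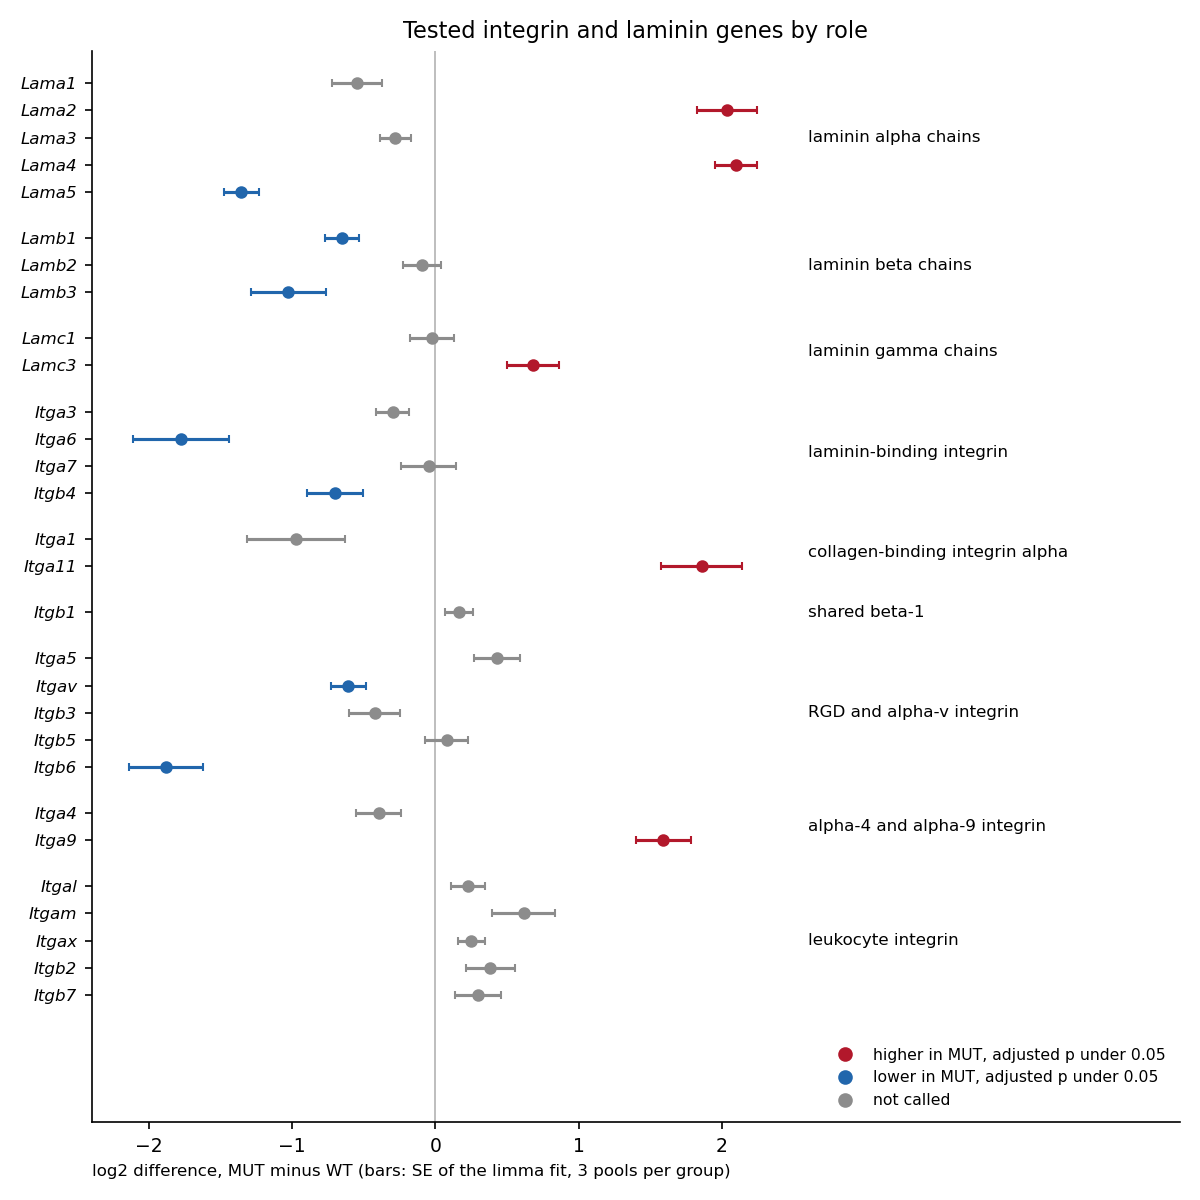
Log2 differences, MUT minus WT (x axis), of 29 tested integrin and laminin genes, grouped by role from the laminin alpha chains at the top to the leukocyte integrins at the bottom; bars are the SE of the limma fit with 3 pools per group, red and blue points are called higher and lower, and grey points are not called. The called genes are spread over 7 of the 9 roles, and the differences run from -1.88 for Itgb6 to 2.10 for Lama4.

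Of the 4 laminin-binding integrin subunits 2 were lower in MUT pools. Itga6, the alpha subunit that pairs with Itgb4 in hemidesmosomes and with Itgb1 elsewhere, had log2 ratios of -2.68, -1.52 and -1.20 in MUT pools and -0.03, -0.16 and 0.13 in WT pools. MUT pool 1 stood below the other MUT pools, all 3 lay below every WT pool, and Itga6 was 3.43-fold lower (log2 difference -1.78 ± 0.34 SE, adjusted p = 0.00731). Itgb4, which links laminin to keratin, had -0.27, -0.70 and -0.02 in MUT pools and 0.22, 0.66 and 0.24 in WT pools. It was 1.63-fold lower (log2 difference -0.70 ± 0.20 SE, adjusted p = 0.0338), but was at 0.25 with the spike-in controls. The Itgb4 call was also lost without MUT pool 2 (adjusted p = 0.0846) and without WT pool 1 (0.0630), 2 (0.106) or 3 (0.0801).

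Itga3, the laminin receptor of podocytes and of the collecting duct, had log2 ratios of -0.60, -0.76 and -0.46 in MUT pools and -0.21, -0.33 and -0.40 in WT pools. These did not overlap, with a gap of 0.07, and the log2 difference of -0.30 was not called (adjusted p = 0.0963). Itga7, the laminin receptor of muscle, had overlapping pools and a log2 difference of -0.05 (adjusted p = 0.884), and 0.90 with the spike-in controls. Itgb1, the beta subunit that most laminin- and collagen-binding alpha subunits share, was not called at either probe. Its brighter probe read 0.30, 0.17 and 0.15 in MUT pools and 0.02, 0.07 and 0.05 in WT pools, a log2 difference of 0.16 ± 0.10 SE (adjusted p = 0.243), and its other probe gave -0.17.

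Of the collagen-binding alpha subunits, which all pair with Itgb1, Itga11 was higher. Itga11, a collagen receptor of fibroblasts, had log2 ratios of 1.53, 1.49 and 1.51 in MUT pools and 0.25, -0.27 and -1.03 in WT pools. The MUT pools agreed within 0.05 and the WT pools spread over 1.28, with WT pool 3 lowest, and Itga11 was 3.63-fold higher (log2 difference 1.86 ± 0.28 SE, adjusted p = 0.00284). Itga1, a collagen receptor of vessels, smooth muscle and stroma, had -1.96, -0.89 and -0.48 in MUT pools and -0.03, -0.43 and 0.05 in WT pools. The groups were 0.05 apart, MUT pool 1 was far below the others, and the log2 difference of -0.97 ± 0.34 SE was not called (adjusted p = 0.0742). This probe was called at -0.55 without MUT pool 1 (adjusted p = 0.0330) and at -1.29 without MUT pool 3 (0.0279). The dimmer tested probe of Itga1 had overlapping pools and gave -0.45 ± 0.30 SE (adjusted p = 0.294). Itga2, an epithelial and platelet collagen receptor, had no Cy5 signal well above background and did not enter the fit. Its log2 ratios were -0.26, -0.34 and -0.08 in MUT pools and -0.06, 0.02 and 0.08 in WT pools (exact two-sided permutation p = 0.1, the smallest that 3 against 3 pools can give). Itga10 was not matched to a probe.

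Itga9, a receptor for tenascin, osteopontin and Vcam1, was the other integrin that was higher. It had log2 ratios of 1.09, 1.67 and 1.76 in MUT pools and 0.02, -0.31 and 0.03 in WT pools. MUT pool 1 was the lowest of its group and still 1.06 above every WT pool, and Itga9 was 3.01-fold higher (log2 difference 1.59 ± 0.19 SE, adjusted p = 0.00116). Itga4, its close relative and a receptor for fibronectin and Vcam1, had -0.30, -0.31 and -0.54 in MUT pools and 0.28, -0.27 and 0.04 in WT pools. Its groups were 0.03 apart, and the log2 difference of -0.40 ± 0.16 SE was not called (adjusted p = 0.0987, and 0.0401 without WT pool 2).

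Of the subunits that bind the RGD motif of fibronectin, vitronectin and latent TGF-beta, 5 were tested and 2 were lower. Itgb6, an epithelial partner of Itgav that activates latent TGF-beta, had log2 ratios of -2.39, -1.95 and -1.56 in MUT pools and 0.09, -0.55 and 0.21 in WT pools. WT pool 2 was the lowest WT pool and lay 1.00 above the highest MUT pool, and Itgb6 was 3.68-fold lower (log2 difference -1.88 ± 0.26 SE, adjusted p = 0.00190). Its other probe, well above background on 1 of the 3 MUT arrays and so tested only through WT, gave a smaller log2 difference of -0.60 (adjusted p = 0.0141). Itgav, the alpha subunit that Itgb3, Itgb5, Itgb6 and Itgb8 share, had -0.59, -0.72 and -0.72 in MUT pools and -0.10, -0.23 and 0.13 in WT pools. It was 1.52-fold lower (log2 difference -0.61 ± 0.12 SE, adjusted p = 0.00888), and its other probe gave -1.08 (adjusted p = 0.00856), but with the spike-in controls the brighter probe was 0.34 higher.

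The other RGD-binding subunits were not called. Itga5, the fibronectin receptor that pairs with Itgb1, had a log2 difference of 0.43 ± 0.16 SE (adjusted p = 0.0860) with slightly overlapping pools. For Itgb3, a vitronectin receptor of platelets, osteoclasts and vessels, the difference was -0.43 ± 0.18 SE (adjusted p = 0.115, and 0.0158 without MUT pool 1), and for Itgb5, a widely expressed vitronectin receptor, it was 0.08 ± 0.15 SE (adjusted p = 0.731). Itga2b, the platelet integrin, was well above background on 2 WT arrays and no MUT array. Its log2 ratios ran from -0.63 to -0.32 in MUT pools and from -0.13 to 0.16 in WT pools (exact two-sided permutation p = 0.1). Itgb8, another activator of latent TGF-beta, was well above background on no MUT array and 1 WT array, and its pools overlapped (exact two-sided permutation p = 0.7).

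The promoter windows of Itga9 and Itgb6 are shown for the same reason as those of the laminins, as the integrins with the smallest adjusted p in each direction that have a window. The Itga9 stretch lies at chr9:118711442-118711691 on the plus strand. The Itgb6 stretch lies at chr2:60722604-60722853 on the minus strand, before the first of the 2 starts that the table lists.
Itga9: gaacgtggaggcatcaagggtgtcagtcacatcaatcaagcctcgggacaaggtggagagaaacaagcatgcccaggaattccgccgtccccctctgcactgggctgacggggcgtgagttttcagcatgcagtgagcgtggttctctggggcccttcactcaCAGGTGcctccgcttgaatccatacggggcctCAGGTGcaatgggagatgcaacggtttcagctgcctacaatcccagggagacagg
Itgb6: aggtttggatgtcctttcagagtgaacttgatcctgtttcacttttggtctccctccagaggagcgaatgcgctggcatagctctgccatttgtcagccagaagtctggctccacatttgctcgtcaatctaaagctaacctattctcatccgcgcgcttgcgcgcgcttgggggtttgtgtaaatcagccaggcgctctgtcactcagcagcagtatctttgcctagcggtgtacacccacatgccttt
With the motifs searched above, the Itga9 stretch held 2 E-boxes, 87 and 55 bases before the start, and the Itgb6 stretch held no match. G and C made up 58.4% of the Itga9 stretch and 52% of the Itgb6 stretch. Of the 13 called genes 8 had a window in the table.

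The leukocyte integrins were represented by 5 tested genes, and limma called none of them. At an unadjusted p under 0.05, 2 had positive differences and none a negative one, and of these Itgax entered the test only through its MUT arrays. Itgam, the alpha subunit of macrophages and neutrophils, had log2 ratios of 1.04, 0.20 and 0.23 in MUT pools and -0.19, -0.03 and -0.16 in WT pools. The groups did not overlap, MUT pool 1 stood apart, and the log2 difference of 0.62 ± 0.22 SE was not called (adjusted p = 0.0742). Without MUT pool 1 it was called at 0.34 (adjusted p = 0.0301). This probe had a mean log2 intensity of 14.15 over the arrays. Another probe of Itgam, at a mean of only 6.46, gave 0.01, and a further one, at 6.24, did not pass the filter on dim probes. Why the probes differ so much in intensity was not tested. Itgax, the alpha subunit of dendritic cells, had 0.32, 0.28 and 0.20 in MUT pools and -0.06, 0.05 and 0.05 in WT pools (adjusted p = 0.0896). Its probe was well above background on all 3 MUT arrays and on no WT array. Itgb2, the beta subunit of both, had a log2 difference of 0.38 (adjusted p = 0.141), Itgal, the lymphocyte alpha subunit, 0.23 (adjusted p = 0.191), and Itgb7, a beta subunit of gut-homing lymphocytes, 0.30 (adjusted p = 0.211), each with overlapping pools. The leukocyte markers did move, since 8 of 10 were higher in MUT and 1, Ptprc, was lower (log2 difference -0.43, adjusted p = 0.0210). Their medians were 0.88, 0.89 and 0.26 in MUT pools and -0.08, -0.43 and -0.69 in WT pools. Itgad and Itgb2l did not pass the filter on dim probes and had overlapping pools (exact two-sided permutation p = 0.5 and 0.3), and Itgae was not matched to a probe.

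A shift of a whole array cancels in the difference between genes on it, whereas an intensity-dependent correction such as loess does not, and pairs of related genes were compared within arrays after loess. The pairs were named after the values were seen and were not tested. Lama4 minus Lama5 was 3.07, 3.29 and 3.22 on the log2 scale in MUT pools and 0.00, -0.18 and -0.61 in WT pools, relative to WT pool 1 RNA. Lama2 minus Lama5 was 2.79, 2.80 and 2.74 in MUT pools and -0.09, -0.64 and -1.12 in WT pools. Both alpha chain pairs were apart by nearly the same amount in every MUT pool. Among the integrins, Itga9 minus Itga6 was 3.76, 3.19 and 2.97 in MUT pools and 0.06, -0.15 and -0.09 in WT pools. Itgb5 minus Itgb6, partners of the same alpha subunit, was 2.58, 1.78 and 1.27 in MUT pools and -0.11, 0.37 and -0.51 in WT pools. In these pairs no MUT pool overlapped a WT pool. For all of these pairs this was fixed in advance and is no further result. In Lama4 or Lama2 minus Lama5 and in Itga9 minus Itga6, the first gene was higher and the second lower in every MUT pool than in any WT pool. For Itgb5 minus Itgb6, the groups of Itgb6 were 1.00 apart, more than the pools of Itgb5 differed. The Itgb5 pools spread over 0.48 in MUT and 0.27 in WT and overlapped.

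The molecules that laminins and integrins bind were read as lists of named partners. Over all tested genes 14.0% were higher and 18.8% lower, and the counts of these lists were not tested against those shares. Of 14 genes of other basement membrane components, 1 was higher and 5 were lower (median log2 difference -0.23). Nid1, the nidogen that links laminin to collagen IV, was 1.26 ± 0.18 SE higher on the log2 scale. The collagen IV chain Col4a4 was at -1.42 and Col4a3 at -0.74, chains that assemble together in mature basement membranes. Col18a1, which forms collagen XVIII, was at -0.91, and Ntn4, a netrin that binds laminin gamma chains, was at -0.83. The Ntn4 probe was well above background on the 3 WT arrays but only 2 MUT arrays, and so was tested only through WT. With the spike-in controls Col18a1, Col4a3 and Ntn4 were instead at 0.03, 0.21 and 0.12, and Col4a4 stayed below 0 without a call. The call of Col4a3 was also lost without MUT pool 2 or 3 or WT pool 1 or 3 (highest adjusted p = 0.0672), and with the slide row as a block (0.0543).

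Matrix ligands of integrins moved mostly the other way, with 10 of 17 higher and 3 lower (median log2 difference 0.61). The 10 include Tnc and Vtn, whose probes were well above background on the 3 MUT arrays and on no WT array, and so were tested only through MUT. Tgfbi, a matrix protein induced by TGF-beta, was at 3.25 ± 0.38 SE. Frem1, a protein of the embryonic basement membrane, was at 1.81, Emilin1, an elastic fibre protein that binds Itga9 and Itga4, at 1.57, and Vcam1, a ligand of the same 2 subunits, at 1.54. Spp1, or osteopontin, was lower at -1.87, Npnt, the nephronectin of the ureteric epithelium, at -1.29, and Egfl7, a product of endothelium, at -1.02. MUT pool 1 was the lowest for Npnt, at -2.23 against -0.87 and -0.74 in the other MUT pools. The Npnt call was lost without any 1 of the WT pools (highest adjusted p = 0.114). It was also lost with Agilent's processed signals (0.0878), the authors' log ratio (0.0884), median centring (0.0596) and Cy5 alone (0.0665). With the spike-in controls Npnt was at -0.34 and Egfl7 at -0.08, and neither was called. With the slide row as a block Vcam1 was at 0.71 (adjusted p = 0.120) and Npnt at -1.24 (0.230), and neither was called.

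Of 7 other laminin receptors and proteins linked to them, 1 was higher and 3 were lower (median log2 difference -0.53). Sgce, a sarcoglycan, was at 0.47, the syndecan Sdc4 at -1.39, Cd151, a tetraspanin that binds laminin-binding integrins, at -0.64, and Bcam, a receptor for Lama5, at -0.53. Bcam and Cd151 were at 0.42 and 0.31 with the spike-in controls, and Sdc4 was at -0.44 there without a call. Without MUT pool 2 or any 1 WT pool the call of Bcam was lost (highest adjusted p = 0.0935), and that of Sgce was without WT pool 1 or 3 (0.0597). The slide row as a block ended the calls of Bcam, Sgce and Sdc4 (adjusted p = 0.138, 0.0884 and 0.0769). Of the hemidesmosome partners 3 were tested, Cd151 was lower, and none was higher, also at an unadjusted p under 0.05. The 26 genes of the integrin adhesion complex inside the cell had a median of -0.01, with 5 higher and 4 lower. These counts are near the shares over all tested genes, 14.0% higher and 18.8% lower. Tns2 at 0.84, Flna at 0.68, Lims1 at 0.54 and Fermt3 at 0.49 were higher, and Tns1 at -0.93, Lims2 at -0.73, Itgb1bp1 at -0.42 and Pxn at -0.40 were lower, but with the spike-in controls these 4 were at 0.02, 0.21, 0.52 and 0.55. Leaving out MUT pool 3 or any 1 WT pool ended the call of Lims1 (highest adjusted p = 0.168). Leaving out MUT pool 2 or 3 or any 1 WT pool ended that of Itgb1bp1 (0.126). The same pools other than WT pool 2 ended that of Pxn (0.0928), and WT pool 3 that of Fermt3 (0.0615). The slide row block ended all of these calls but that of Tns1, with Tns2 at 0.61 (adjusted p = 0.0667), Flna at 0.60 (0.0972) and Lims2 at -0.62 (0.0884).

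**Figure D3:**
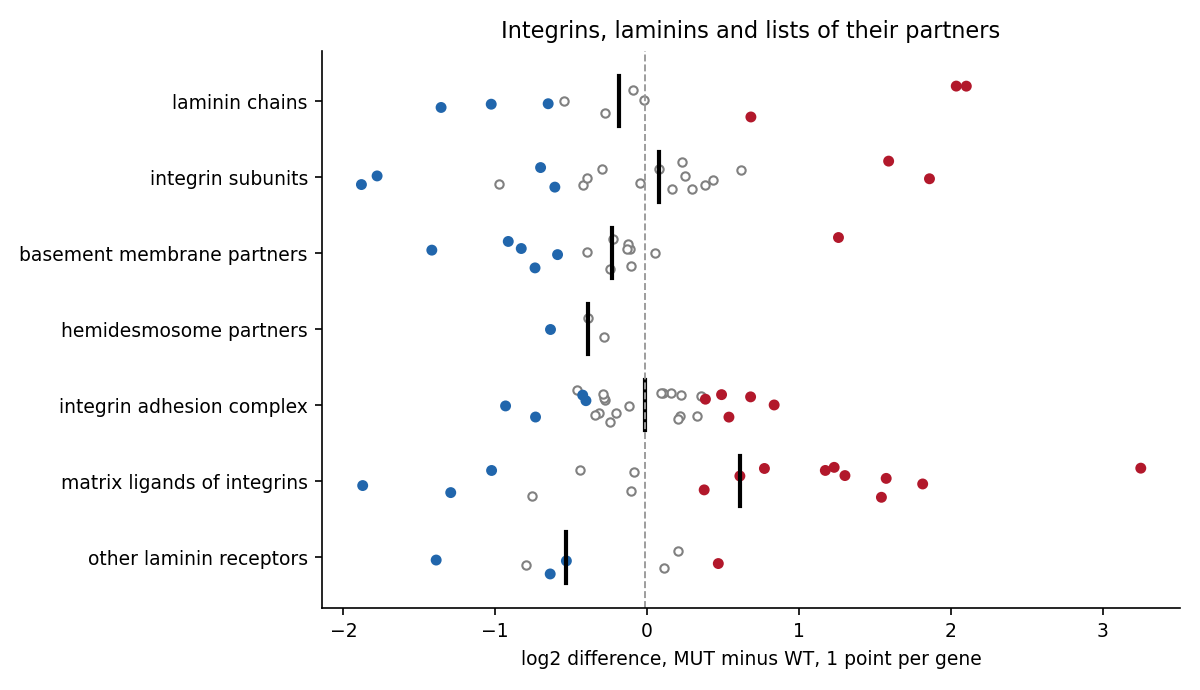
Log2 differences, MUT minus WT (x axis), with 1 point per gene for the laminin chains, the integrin subunits and 5 lists of partners; red and blue points are called higher and lower, open points are not called, and black bars are list medians. The matrix ligands have a median of 0.61, and the adhesion complex lies around its median of -0.01.

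The direction of the smaller changes depended on the scale of the arrays. After loess, 7584 of 29003 tested probes were called (26.1%) and 44.2% of these were higher in MUT, while centring each array on its median moved the median of all probes by 0.23 and made 77.2% of the called probes higher. With each array scaled to its 10 spike-in control probes the median probe was 0.95 higher in MUT, and 98.9% of called probes were higher. This scaling moves all probes of an array by 1 shared amount, and the limma SE was 0.38 for Lama4, Lama5 and Itga6 alike. Calls made under it share that difference between arrays and are not separate results. The spike-in shift itself was -0.70, -0.55 and -0.18 in MUT pools and 0.01, 0.39 and 1.01 in WT pools, so it also differed within groups, and whether equal amounts were added per RNA is not stated in the sources used here. Among the integrins and laminins 7 were then higher and 5 lower with median centring, and 16 higher and 2 lower with the spike-in controls, against 5 higher and 8 lower after loess. Median centring ended the calls of Itgb4 (-0.43, adjusted p = 0.209) and Itgav (-0.33, adjusted p = 0.250) as well as Lamb1, and called Itga5 at 0.73 and Itgam at 1.05. With the spike-in controls Lama4 was at 3.05, Itga9 at 2.54, Itga6 at -0.83 and Itgb6 at -0.93. Lama5 and Lamb3 kept a negative value there, -0.41 and -0.08, but were not called.

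All arrays lay on 1 slide, with the MUT pools and WT pool 1 in row 1 and WT pools 2 and 3 in row 2. With the row as a block, which equals the MUT pools against WT pool 1 alone, 6 of the 13 genes were still called. They were Lama4 at 1.96, Lama2 at 1.63, Itga9 at 1.48, Itga11 at 1.26, Lama5 at -1.23 and Itgb6 at -2.05. Others kept their direction without a call, with Itga6 at -1.77, Lamb3 at -0.81, Lamb1 at -0.66, Itgav at -0.57, Itgb4 at -0.54 and Lamc3 at 0.33. Row 2 holds no MUT pool and gives no value of its own.

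**Figure D4:**
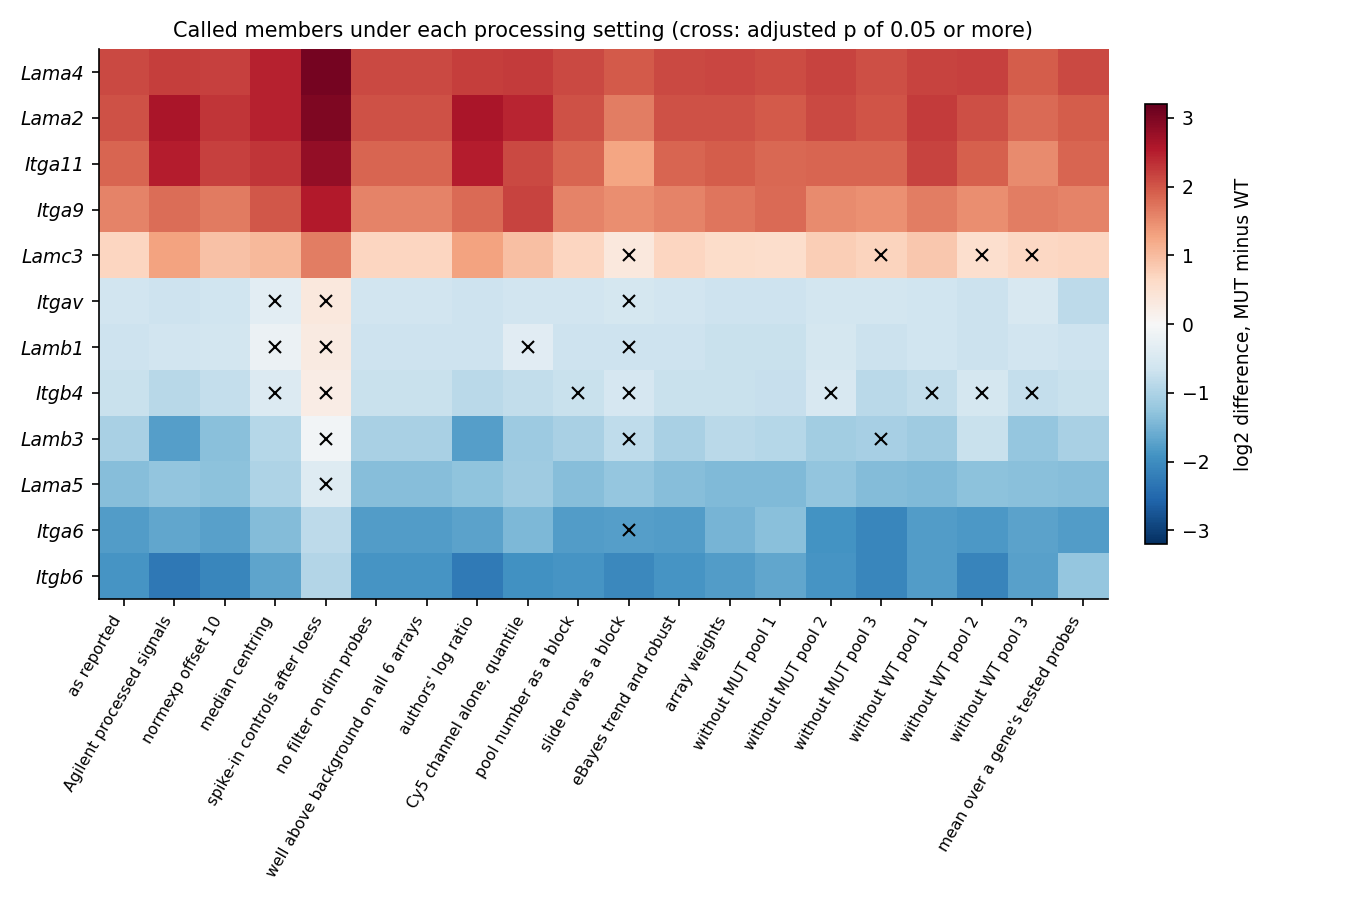
Log2 difference, MUT minus WT (colour scale), of 12 called genes (rows) under the reported processing and 19 alternatives (columns), with a cross where the adjusted p is 0.05 or more. Lama4, Lama2, Itga11, Itga9 and Itgb6 carry no cross, and Itgb4 carries the most.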

How the data were processed

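The authors deposited scanner files that hold, per the file headers, the spot intensity of each channel (median signals and median backgrounds), processed signals and the log10 of Cy5 over Cy3. Per the submitters' processing notes the software was Agilent Feature Extraction 10.7.3.1. Each labelling used 0.5 µg of total RNA and no dyes were swapped, per the labels. The authors' value table repeats that log10 ratio, with a median of 0 on each array, and was used as an alternative.

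Intensities were background-corrected with normexp (offset 50), log2 ratios were normalized by loess within each array with control spots at weight 0, and spots of a probe were averaged. No spot was saturated. A probe was tested if its Cy5 signal was well above background on every array of MUT, of WT or of both, which held for 29003 of 55681 (52.1%). RefSeq accessions, matched to a table of GRCm38.p6, named 27509 probes. The file headers name another assembly, so coordinates are given only for promoter windows, which come from the RefSeq table of GRCm38.p6.

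MUT and WT were compared on all 6 arrays in limma (lmFit, then eBayes) with no covariate, with Benjamini-Hochberg adjustment over all tested probes. Probes below the filter were compared by an exact permutation test. Probes above background in Cy5 numbered 30821, 31314 and 30879 on the arrays of MUT pools 1 to 3. On those of WT pools 1 to 3 they numbered 28647, 27022 and 27465, fewer than on any MUT array. Precision is limited by the number of arrays. The integrins and laminins on the array are named, except 2 that are not reported here, of which counts and medians include 1 and figures neither. Of each partner list up to 4 called genes with the largest rise and fall are named. For marker lists the counts and medians are given, with Ptprc named as the 1 leukocyte marker that was lower. The genes and lists were chosen with earlier results of these data known. Alternatives covered background correction, scaling, the filter, the authors' log ratio, Cy5 alone, blocks, weights, each array left out, and the mean over a gene's probes.

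In a test of the pipeline on simulated data with 29003 probes, log2 changes of 0.5, 1 and 2 were called in 11.9%, 43.3% and 83.3% of cases, with median estimates of 0.41, 0.70 and 1.72. Of 94 calls, 2 were probes with no change. The changes of 0.5, 1 and 2 were given to 67, 67 and 66 probes, far fewer than the 7584 called in the data. Adjustment over all tested probes is stricter with fewer changes, so these shares do not give the power of the reported comparison. Computation used R 4.3.3 with limma 3.58.1 and data.table (version 1.17.8). Figures were drawn in Python 3.11.15 by matplotlib 3.10.9.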

Additional observations from a re-analysis of the deposited data

How the results depend on the processing

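Lama4, Lama2, Itga11, Itga9 and Itgb6 kept their direction and their call in all 19 alternatives run. Over the 13 called genes, 221 of 247 values kept direction and call, 23 lost the call and 3 changed sign. Of 321 values of genes that were not called, 284 stayed so, 34 passed the threshold and 3 passed it with the opposite sign. Sign changes between values that both missed the threshold were not counted. The number of called probes, 7584 as reported, was 19153 with the spike-in controls, 2194 with a slide row block and 3831 to 9536 with 1 array left out, with 4890 without WT pool 1 and 3831 without WT pool 3. Integrins and laminins called higher numbered 16 with the spike-in controls and 4 to 6 with 1 array left out. Those called lower numbered 5 with median centring, 2 with the spike-in controls, 2 with a slide row block and 7 to 10 with 1 array left out. Partner genes called higher, 17 as reported, numbered 35 with the spike-in controls, 5 with the slide row and 9 to 21 with 1 array left out, the 9 without WT pool 3. Those called lower, 15 as reported, numbered 5 with median centring, 1 with the spike-in controls, 7 with the slide row, 24 with array weights and 9 to 24 with 1 array left out. The 24 was without MUT pool 1, and the 9 without WT pool 1 or WT pool 3.

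All of the sign changes that were counted came with the spike-in controls, which shift every value up. There Lamb1 was at 0.30, Lamb2 at 0.85, Lamc1 at 0.93, Itga7 at 0.90, Itgb4 at 0.25 and Itgav at 0.34. Of the partners, Bcam was at 0.42, Cd151 at 0.31, Col18a1 at 0.034, Col4a3 at 0.21, Itgb1bp1 at 0.52, Lims2 at 0.21, Ntn4 at 0.12, Pxn at 0.55 and Tns1 at 0.017. The cause of the other changes was not tested, beyond the fewer arrays that a left-out array or the slide row leaves.

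Pool numbers are shared by both groups, and nothing in the labels says that they mark a litter or day. Deviations of same-numbered pools from their group means correlated at 0.14, 0.07 and 0.20 over probes, and each MUT pool correlated best with the WT pool of its own number, a hint from the data only. With the pool number as a replicate block 7247 probes were called, and 6 integrins and laminins were higher and 8 lower. Under this block Itgb4 was not called (adjusted p = 0.0630), and Itgb2 (0.0454) and Itgb3 (0.0290) were.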
